A study of Mus musculus with 24 samples.

Results

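The 8 genes described here, Zfp949, Gm28586, Cep162, Cep70, 9330159M07Rik, 9330154J02Rik, Morf4l1 and Snhg5, lie on mouse chromosome 9 and were selected on their measured levels, which followed the genotype label in earlier results of these data. They are 8 of the 16730 genes in the deposited count table. Of these, 4 were matched by the deposited gene symbol, 3 by the symbol of GENCODE release M21 and 1, Gm28586, by its gene identifier. Levels in the libraries labelled Lama4 AKO against those labelled Lama4 fl/fl were thus the values that chose the genes. These genotype differences are given as a description with no test, and the neighbouring genes described further on are those that the choice left out. The comparison of diets was not used to choose the 8 genes, but it shares its libraries with the comparison that was.

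Bulk RNA of epididymal white adipose tissue (eWAT) was measured in 24 male mice of the labelled strain LFKO, 6 in each of 4 groups. The groups were Lama4 fl/fl on chow, Lama4 AKO on chow, Lama4 fl/fl on a high-fat diet (HFD, 45% fat) and Lama4 AKO on HFD, all after 20 weeks of feeding. Mice of all 4 groups carried Lama4 with loxP sites around exon 3, and the AKO mice were littermates that also carried Cre under the adiponectin promoter, which is active in adipocytes. The stromal, vascular and immune cells of the fat pad keep the floxed allele uncut in this model. The floxed allele was made in C57BL/6N embryonic stem cells and brought onto C57BL/6J, and the Cre came from a separate line. Each of the 24 libraries was made with the QuantSeq 3′ method, in which a 50-base read comes from the 3′ end of a transcript, and held between 5579590 and 18764516 counts. Levels are given as CPM, the count of a gene as a share of the library scaled to a common total, after TMM scaling of the totals. All 8 genes passed the filter of at least 1 CPM in at least 3 libraries, as did 15020 genes in all. 9330154J02Rik and Gm28586 passed it only because of their AKO libraries. In fl/fl the first reached at most 0.723 CPM, and the second was counted in 1 library.

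Lama4 itself did not separate the labels. On chow, Lama4 lay between 41.2 and 196 CPM in fl/fl and between 64.2 and 133 CPM in AKO libraries. On HFD it lay between 32.4 and 135 CPM in fl/fl and between 36.4 and 92.5 CPM in AKO libraries. The log2 fold change of AKO against fl/fl was 0.11 (SE 0.343, adjusted p = 0.980, edgeR) on chow and -0.69 (SE 0.346, adjusted p = 0.347) on HFD. The 3′ reads fall outside the deleted exon, so this level does not check the labels. By quantitative PCR, the study itself reported a knockdown of Lama4 in eWAT of chow-fed AKO mice. Adipocyte markers were present in every group, with a summed level of 8263 CPM or more in each library. Within groups the libraries differed widely in this sum, most of all in HFD fl/fl, where it ran from 8618 to 41393 CPM.

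Genes that sit close together on a chromosome are inherited together. When mouse lines are crossed, the segment around a transgene or an edited allele is carried along from the line that brought it, with any sequence differences of that line, and such differences can change the level of a transcript or the share of its reads that map. The count table holds no sequence variants, so linked strain variation was not tested. The 8 genes differ in kind. Zfp949 encodes a zinc finger protein, Cep162 and Cep70 encode proteins of the centrosome, the organelle that anchors microtubules and forms the base of the cilium, and Morf4l1 encodes MRG15, a chromodomain protein of histone acetylase and deacetylase complexes. Snhg5 is a host gene of small nucleolar RNAs (snoRNAs), which guide the modification of ribosomal RNA, and 9330159M07Rik, 9330154J02Rik and Gm28586 are annotated as noncoding.

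On GRCm38 the 8 genes span chr9:85820241-100531071. Snhg5 (chr9:88521050-88522929, minus strand) and Zfp949 (chr9:88548020-88571061, plus strand) are neighbours that point away from each other, and 9330159M07Rik (chr9:88840236-88858870, minus strand) lies 0.292 Mb from the start of Zfp949. Cep162 (chr9:87189577-87255536) and Morf4l1 (chr9:90091665-90114774), both on the minus strand, lie 1.36 Mb before and 1.54 Mb after it. 9330154J02Rik (chr9:85820241-85844323, minus strand) overlaps Tpbg on the other strand. Cep70 (chr9:99243367-99300404, plus strand) and Gm28586 (chr9:100530616-100531071, minus strand) stand 10.7 and 11.98 Mb away. Gm28586 is a single exon of 456 bases annotated as sense-intronic, inside an intron of Nck1.

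Gm28586 is shown first because it was near absent from one genotype. Bases 159 to 356 of its transcript are similar to a repeat found in up to 2802 other genes, and 100 bases follow the repeat at the 3′ end, where QuantSeq reads are expected to fall. The last 300 bases of the transcript in GENCODE M21 (chr9:100530616-100530915, minus strand) are printed here with the bases that match fewer than 10 other genes in capitals.
Gm28586: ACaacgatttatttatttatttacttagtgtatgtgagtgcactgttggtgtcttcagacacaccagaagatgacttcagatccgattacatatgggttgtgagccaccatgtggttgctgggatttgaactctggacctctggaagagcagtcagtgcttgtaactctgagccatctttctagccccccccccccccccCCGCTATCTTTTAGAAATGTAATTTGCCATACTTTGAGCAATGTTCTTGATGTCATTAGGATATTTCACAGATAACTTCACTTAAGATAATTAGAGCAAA

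Gm28586 had 0 counts in all 6 chow fl/fl libraries and in 5 of 6 HFD fl/fl libraries, and was counted in 12 of 12 AKO libraries. In chow AKO its level ran from 0.460 CPM through a median of 0.703 to 1.54 CPM, on 6 to 17 counts per library. In HFD AKO it ran from 1.52 CPM through a median of 3.13 to 4.11 CPM, on 17 to 50 counts. The exception was HFD fl/fl replicate 2, with 33 counts or 2.03 CPM, a level inside the range of HFD AKO. In that library Zfp949 stood at 2.95 CPM and 9330154J02Rik at 0.123 CPM, both inside the ranges of the other fl/fl libraries and below HFD AKO. Cep162 at 15.6, Cep70 at 21.1 and 9330159M07Rik at 2.83 CPM lay inside the ranges of both HFD AKO and the other fl/fl libraries. Snhg5 at 15.2 CPM lay inside the range of HFD AKO and below every other fl/fl library. Morf4l1 at 32.7 CPM lay above the range of HFD AKO. Summed over libraries, chow AKO held at least 23.5-fold more Gm28586, as pooled CPM, than chow fl/fl, taking 3 counts over the fl/fl group as the limit that a count of 0 allows. On HFD the AKO libraries held 7.90-fold more, and at least 71.0-fold more without HFD fl/fl replicate 2. Among the 16730 genes of the table Gm28586 was the only 1 that was at 0 in 11 or 12 fl/fl libraries and counted in every AKO library, and 0 genes had the reverse pattern. Its host gene Nck1, an adaptor of receptor tyrosine kinases, did not follow: the log2 fold change of AKO against fl/fl was -0.08 (SE 0.184, adjusted p = 0.975) on chow and -0.33 (SE 0.185, adjusted p = 0.392) on HFD.

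Zfp949 was the gene that separated the labels most. On chow its level ran from 2.11 CPM through a median of 4.86 to 5.80 CPM in fl/fl and from 6.38 CPM through 10.5 to 12.4 CPM in AKO libraries. On HFD the fl/fl libraries ran from 2.71 CPM through 3.56 to 4.49 CPM and the AKO libraries from 5.78 CPM through 7.07 to 10.9 CPM. The groups did not overlap within either diet, a pattern met by 1 of the 15020 genes tested (0.00666%). Over both diets the ranges overlapped by 1 pair of libraries, the highest fl/fl library at 5.80 CPM and the lowest AKO library at 5.78 CPM. In 0.993 of all pairs of 1 AKO and 1 fl/fl library the AKO library was higher, rank 1 of all genes tested, and Gm28586 was rank 2 at 0.944. The log2 fold change was 1.25 (SE 0.247) on chow and 1.07 (SE 0.248) on HFD, which is 2.38-fold and 2.10-fold. Stretches of at least 50 bases in the transcript ends of Zfp949 match 32 other genes at 95% identity or more, the longest over 76 bases at 96.1%, so part of its reads could be split between genes.

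**Figure D1:**
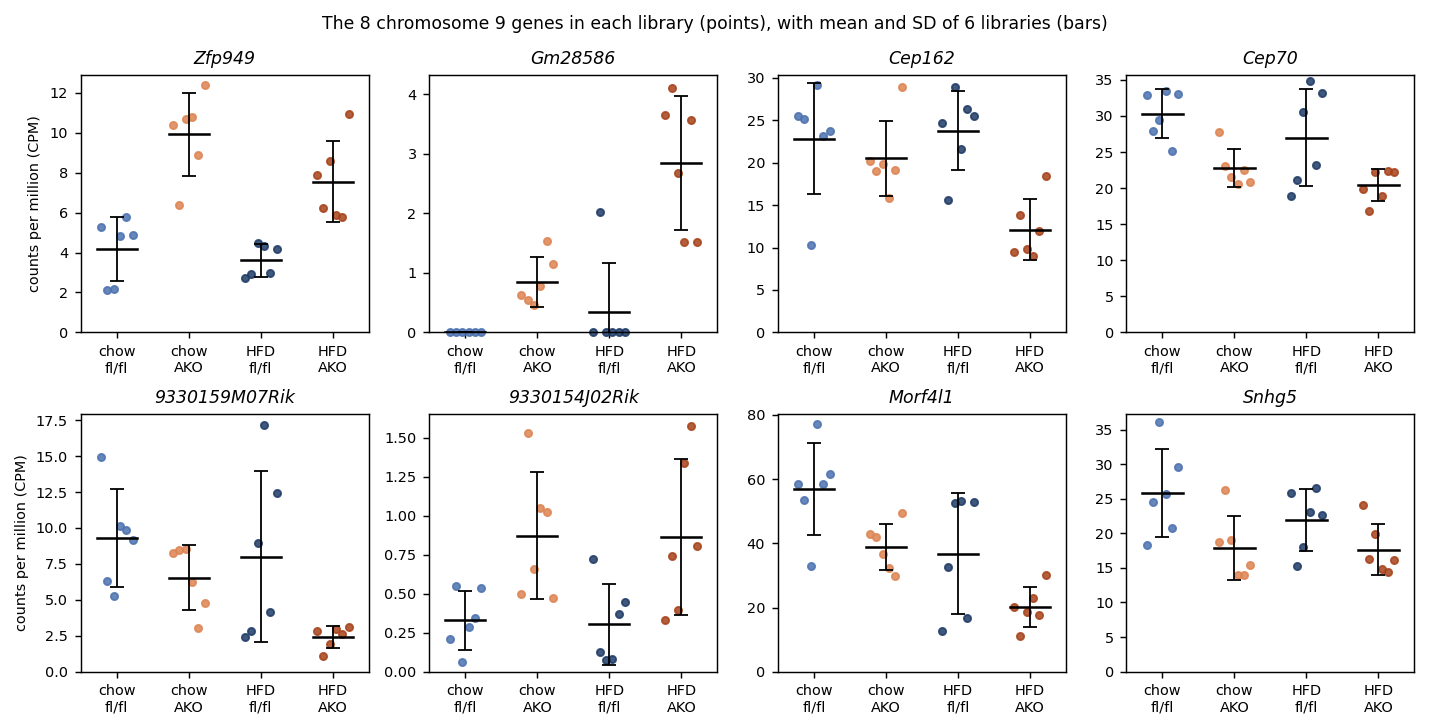
Level of each of the 8 genes in CPM (vertical axes starting at 0) for the 4 groups of 6 libraries; points are libraries, the wide line is the mean and the bar its SD. Zfp949 and Gm28586 were higher in AKO than in fl/fl libraries with the single Gm28586 exception of HFD fl/fl replicate 2 at 2.03 CPM, while HFD fl/fl libraries of Morf4l1 and 9330159M07Rik spread from 12.5 to 53.2 and from 2.41 to 17.1 CPM.

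The third gene with higher levels in AKO was 9330154J02Rik. It was scarce, with 1 to 7 counts per library in chow fl/fl, 6 to 17 in chow AKO, 1 to 12 in HFD fl/fl and 4 to 15 in HFD AKO. Its level ran from 0.0639 CPM through 0.314 to 0.547 CPM in chow fl/fl and from 0.472 CPM through 0.841 to 1.53 CPM in chow AKO. In HFD fl/fl it ran from 0.0774 CPM through 0.246 to 0.723 CPM and in HFD AKO from 0.333 CPM through 0.772 to 1.58 CPM. The groups overlapped on HFD and on chow, though the medians of AKO lay above every library of fl/fl. AKO against fl/fl gave a log2 fold change of 1.36 (SE 0.531) on chow and 1.44 (SE 0.532) on HFD. Tpbg, which encodes an oncofetal glycoprotein and overlaps it on the opposite strand, had log2 fold changes of 0.10 (SE 0.453) and 0.68 (SE 0.436). The overlap lies at the 5′ end of 9330154J02Rik, while QuantSeq reads are expected at its 3′ end. Whether the counting used strand is not given in the sources used here, so any reads of the overlap itself cannot be told apart.

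The remaining 5 genes were lower in AKO on average. Cep162, a protein of the distal end of the centriole that takes part in building the base of the cilium, had a larger difference on HFD than on chow. On chow it ran from 10.3 CPM through 24.4 to 29.2 CPM in fl/fl and from 15.9 CPM through 19.5 to 29.0 CPM in AKO libraries, and the groups overlapped. On HFD it ran from 15.6 CPM through 25.1 to 28.9 CPM in fl/fl and from 9.02 CPM through 10.9 to 18.4 CPM in AKO. Only HFD AKO replicate 6 at 18.4 CPM lay above the lowest fl/fl library on HFD. The log2 fold change was -0.15 (SE 0.214) on chow and -0.98 (SE 0.217) on HFD. The difference between these 2 values was -0.82 (SE 0.304), and -0.59 (SE 0.298) on the 19 libraries described further on. It is given with no test, as the genotype contrast chose the gene.

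Cep70, a centrosomal protein that binds γ-tubulin, had a small difference of similar size in both diets. On chow it ran from 25.1 CPM through 31.1 to 33.5 CPM in fl/fl and from 20.6 CPM through 22.01 to 27.7 CPM in AKO. On HFD it ran from 18.9 CPM through 26.9 to 34.8 CPM in fl/fl and from 16.8 CPM through 21.1 to 22.4 CPM in AKO. A single chow AKO library, replicate 1, lay inside the range of chow fl/fl, whereas on HFD 2 fl/fl libraries, replicates 1 and 2 at 18.9 and 21.1 CPM, lay within the range of AKO. On the log2 scale AKO differed from fl/fl by -0.41 (SE 0.141) on chow and -0.40 (SE 0.141) on HFD.

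On chow Morf4l1 ran from 32.8 CPM through 58.5 to 77.1 CPM in fl/fl and from 29.9 CPM through 39.3 to 49.3 CPM in AKO, and 5 of 6 fl/fl libraries lay above every AKO library. On HFD it ran from 12.5 CPM through 42.7 to 53.2 CPM in fl/fl and from 11.2 CPM through 19.4 to 30.2 CPM in AKO. The HFD fl/fl libraries were spread widely, with replicates 3, 4 and 6 between 52.7 and 53.2 CPM and replicates 1, 2 and 5 at 12.5, 32.7 and 16.7 CPM. AKO minus fl/fl came to a log2 fold change of -0.55 (SE 0.295) on chow and -0.87 (SE 0.299) on HFD. The 3′ ends of Morf4l1 transcripts are not unique: stretches of at least 50 bases in the last 300 bases of its 12 annotated transcripts match 234 other genes at 95% identity or more, and the longest match, 300 bases at 100% identity, is to Gm26882. The level of Morf4l1 is therefore uncertain where the counting could split reads between copies.

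Snhg5 and 9330159M07Rik are shown together because parts of their sequences are alike. Of the 8 genes 6 had a promoter in the RefSeq table for GRCm38.p6, which holds 250 bases before and 50 bases after the start of each gene. The promoters of Snhg5 (chr9:88522848-88523147, minus strand) and 9330159M07Rik (chr9:88858821-88859120, minus strand) aligned over 253 positions with 197 identical, or 77.9%. Capitals mark the 102 bases in identical runs of at least 12.
Snhg5: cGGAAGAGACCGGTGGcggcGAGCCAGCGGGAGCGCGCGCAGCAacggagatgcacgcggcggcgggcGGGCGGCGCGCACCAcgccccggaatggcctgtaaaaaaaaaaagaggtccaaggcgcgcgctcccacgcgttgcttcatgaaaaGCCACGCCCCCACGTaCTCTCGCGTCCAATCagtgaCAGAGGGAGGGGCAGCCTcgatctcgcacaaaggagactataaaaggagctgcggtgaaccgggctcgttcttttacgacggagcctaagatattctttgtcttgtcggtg
9330159M07Rik: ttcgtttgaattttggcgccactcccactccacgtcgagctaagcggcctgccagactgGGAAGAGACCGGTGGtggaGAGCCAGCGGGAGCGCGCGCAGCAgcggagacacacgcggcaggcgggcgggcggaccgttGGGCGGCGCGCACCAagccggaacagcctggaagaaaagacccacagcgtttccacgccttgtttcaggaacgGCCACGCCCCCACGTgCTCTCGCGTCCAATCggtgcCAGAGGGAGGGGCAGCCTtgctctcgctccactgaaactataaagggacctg
Both promoters hold the letters TATAAA, searched on both strands, which 13.6% of the 32851 promoters in the table hold and no other matched gene of the 8 held. In the last 300 bases of their transcripts, Snhg5 and 9330159M07Rik share a stretch of 212 bases at 96.7% identity. Over the whole of 1 transcript of each, of 1221 and 2265 bases, 768 of 1106 aligned positions were identical, or 69.4%. A further copy between them, 9430037G07Rik (chr9:88595325-88599516), matches 9330159M07Rik over 309 aligned bases at 95.5% identity. It had 115 counts over all libraries, 77 in fl/fl and 38 in AKO, and did not pass the filter. Reads of 50 bases from these stretches could be split between the copies, so the levels of Snhg5 and 9330159M07Rik are uncertain to that extent.

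Snhg5 ran from 18.3 CPM through 25.1 to 36.1 CPM in chow fl/fl and from 13.9 CPM through 17.1 to 26.2 CPM in chow AKO. On HFD it ran from 15.2 CPM through 22.9 to 26.6 CPM in fl/fl and from 14.4 CPM through 16.3 to 24.03 CPM in AKO. The groups overlapped in both diets. In log2 terms AKO stood at -0.53 (SE 0.187) on chow and -0.31 (SE 0.187) on HFD.

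9330159M07Rik ran from 5.24 CPM through 9.52 to 14.9 CPM in chow fl/fl and from 3.07 CPM through 7.24 to 8.54 CPM in chow AKO. On HFD it ran from 2.41 CPM through 6.58 to 17.1 CPM in fl/fl and from 1.07 CPM through 2.73 to 3.13 CPM in AKO. As for Morf4l1, HFD fl/fl replicates 3, 4 and 6 were high, at 8.98, 17.1 and 12.4 CPM, and replicates 1, 2 and 5 were low, at 2.41, 2.83 and 4.19 CPM. The log2 fold change was -0.49 (SE 0.397) on chow and -1.72 (SE 0.419) on HFD. Between Snhg5 and 9330159M07Rik r was 0.02 over the 24 libraries on the log2 scale after the group means were taken out.

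Genes were called where the fold reached 1.5, the unadjusted p was 0.001 or lower and the higher group averaged 2 CPM or more. 9330154J02Rik averaged at most 0.870 CPM in a group, so the rule could not call it in any comparison. Gm28586 averaged 0.848 CPM in chow AKO and 0.338 CPM in HFD fl/fl. It could therefore not be called for genotype on chow or for diet in fl/fl mice. Averaged over the diets, 3 of the 8 genes were called, Zfp949 and Gm28586 higher and 9330159M07Rik lower, against 0.0333% of all genes tested. The other 2 genes called in that comparison were Ces1f, a carboxylesterase, at -0.89 (SE 0.229) and the mitochondrial transfer RNA mt-Ti at -0.69 (SE 0.149). Within diets 1 of the 8 was called on chow, Zfp949, against 0.113% of all genes, and 3 on HFD, Zfp949 higher and Cep162 and 9330159M07Rik lower, against 0.173%. As these comparisons chose the genes, nothing is read from the counts. The call of 9330159M07Rik averaged over the diets was lost in 14 of the 24 fits that left out 1 library.

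The levels of 3 of the 5 lower genes moved with the adipocyte markers of the library. Within groups, the correlation with the summed adipocyte markers on the log2 scale was 0.87 for 9330159M07Rik, 0.74 for Cep70 and 0.69 for Morf4l1 over the 24 libraries. It was 0.56 for Zfp949, 0.36 for Cep162, 0.07 for Snhg5, -0.19 for 9330154J02Rik and -0.48 for Gm28586. Libraries share depth and scaling, so these values are a description. The first principal component, the main axis of variation over all genes tested, held 45.8% of the variance. Within groups the adipocyte sum correlated with it at -0.95, so moving with these markers cannot be read as a trait of the 3 genes. The share of all genes that moved with the markers was not computed. All 7 adipocyte markers of the list were in the table and none was at 0 throughout a group. Their sum ran from 17350 to 43369 CPM in chow fl/fl, from 15327 to 36931 CPM in chow AKO, from 8618 to 41393 CPM in HFD fl/fl and from 8263 to 23977 CPM in HFD AKO. The macrophage markers moved the other way, with correlations of -0.79 for 9330159M07Rik, -0.62 for Cep70 and -0.43 for Morf4l1. Their sum ran from 783 to 4075 CPM in HFD fl/fl and from 2694 to 3838 CPM in HFD AKO. Mast cell markers gave -0.89, -0.69 and -0.62 for the same 3 genes, and endothelial markers gave 0.80, 0.72 and 0.67. For Zfp949 the value was 0.68 with the endothelial and -0.44 with the mast cell markers. The mast cell sum ran from 52.2 to 2242 CPM in HFD fl/fl and from 605 to 2056 CPM in HFD AKO, and the endothelial sum from 191 to 556 CPM and from 231 to 485 CPM. HFD fl/fl replicates 3, 4 and 6, the libraries high in Morf4l1 and 9330159M07Rik, had adipocyte sums of 24027, 41393 and 36463 CPM against 8618, 10358 and 14867 CPM in replicates 1, 2 and 5. The part of these markers in the genotype differences was not tested, and in bulk tissue fewer cells of a type and less RNA per cell cannot be told apart.

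**Figure D2:**
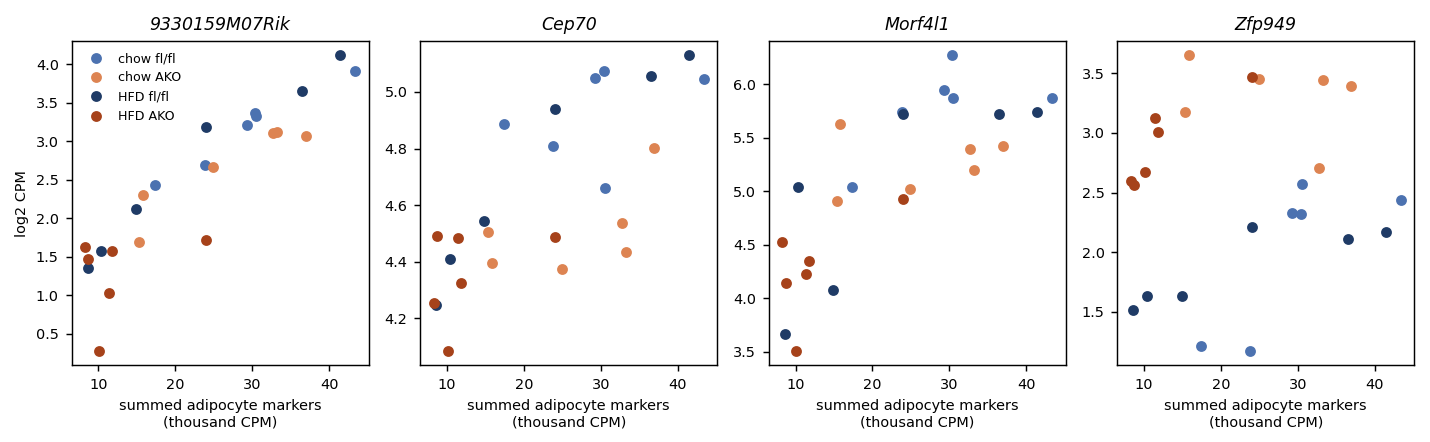
Level of 4 of the genes on the log2 CPM scale (vertical) against the summed CPM of 7 adipocyte markers (horizontal) in the 24 libraries, coloured by group. 9330159M07Rik, Cep70 and Morf4l1 rise with the marker sum across groups, whereas Zfp949 forms an upper band of AKO and a lower band of fl/fl libraries.

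The same 3 genes had smaller genotype differences on HFD when 5 libraries were left out, which an earlier analysis of these data took to be the mice that the study removed by principal component analysis. These were chow fl/fl replicate 3, chow AKO replicate 5 and HFD fl/fl replicates 3, 4 and 6, which leaves 3 libraries in HFD fl/fl. On these 19 libraries the log2 fold change of AKO against fl/fl on HFD was -0.05 (SE 0.138) for Cep70, -0.04 (SE 0.268) for Morf4l1 and -0.38 (SE 0.313) for 9330159M07Rik. It was 1.39 (SE 0.293) for Zfp949, 1.05 (SE 0.581) for 9330154J02Rik, -0.88 (SE 0.219) for Cep162 and -0.36 (SE 0.219) for Snhg5. On chow the values on 19 libraries were 1.15 (SE 0.245) for Zfp949, 1.09 (SE 0.513) for 9330154J02Rik, -0.42 (SE 0.123) for Cep70, -0.61 (SE 0.237) for Morf4l1 and -0.47 (SE 0.266) for 9330159M07Rik. Cep162 moved from -0.15 to -0.29 (SE 0.199) and Snhg5 from -0.53 to -0.35 (SE 0.198). Among the genes described here, Zfp949 and Gm28586 were called on 19 libraries averaged over the diets. Zfp949 was also called on chow and on HFD, and Cep162 on HFD. Of all genes tested on 19 libraries, 0.074% were called averaged over the diets, 0.209% on chow and 0.565% on HFD. The genotype difference chose the genes, so nothing is read from these calls.

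**Figure D3:**
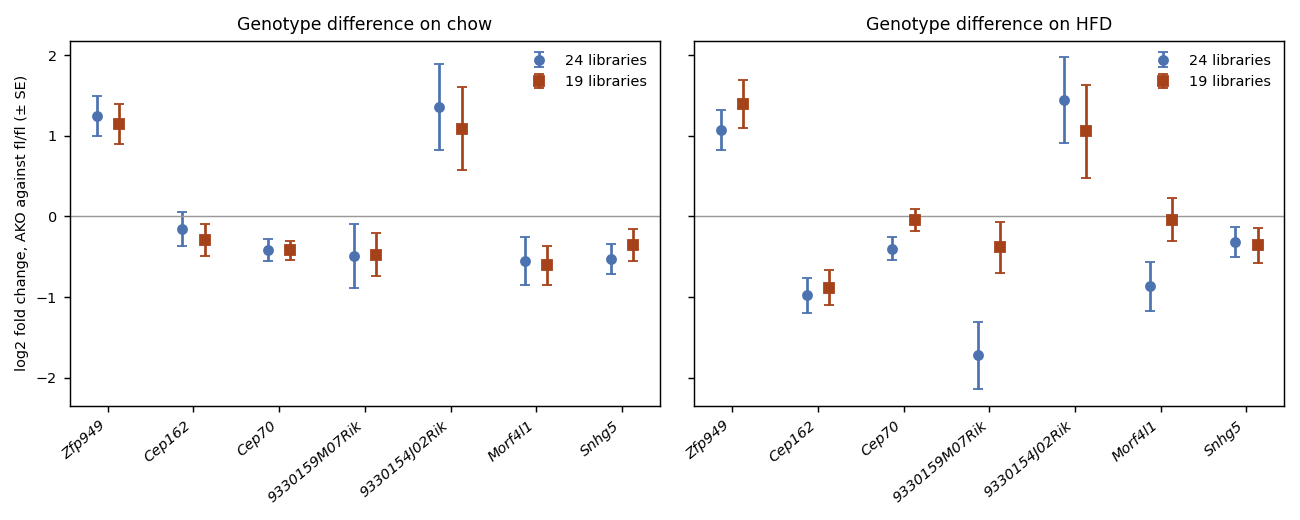
Genotype difference of 7 of the genes as log2 fold change of AKO against fl/fl with its SE (vertical), on chow (left) and HFD (right), from all 24 libraries (circles) and from 19 libraries (squares); Gm28586 is not drawn because its fl/fl libraries were nearly all at 0. On HFD the squares of Cep70 and Morf4l1 lie at -0.05 and -0.04 while those of Zfp949 and Cep162 stay at 1.39 and -0.88.

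HFD was compared with chow within each genotype. The AKO libraries on HFD also entered the genotype comparison that chose the genes, so the p-values of diet in AKO mice are not independent of the choice. In AKO mice 3 of the 8 genes fell on HFD at an adjusted p of at most 0.05, a threshold that 22.1% of all genes tested passed in this comparison. The 3 were Cep162, with a log2 fold change of -0.76 (SE 0.217, adjusted p = 0.0238), 9330159M07Rik, with -1.45 (SE 0.419, adjusted p = 0.0246), and Morf4l1, with -0.95 (SE 0.299, adjusted p = 0.0314). None of the 8 met the call rule in AKO mice by edgeR, against 4.12% of all genes, and 4 had an unadjusted p under 0.05, against 39.8% of all genes. DESeq2 called 2 of them, Cep162 and 9330159M07Rik, and limma-voom called 1, Gm28586. The counts over all genes by these methods are given further on. Over the 8 genes the median log2 fold change was -0.27, against -0.00 over all genes tested. Lama4 also fell, by 1.05 on the log2 scale (SE 0.347, adjusted p = 0.0364), as did Adipoq, the adipokine gene whose promoter drives the Cre, by 1.44 (SE 0.507, adjusted p = 0.0452).

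The diet difference of Gm28586 in AKO mice depended on the test. Its mean was 1.48 log2 CPM in HFD AKO and -0.10 in chow AKO, a difference of 1.58 (two-sided exact permutation test, p = 0.00649, 924 splits, n = 6 per group), and 4 of 6 HFD libraries lay above every chow library. This p is for 1 gene, chosen on these libraries, and is not adjusted. The edgeR fit over all libraries gave a log2 fold change of 1.78 (SE 0.851, adjusted p = 0.126), which did not pass, and without HFD fl/fl replicate 2 the gene was called. Nck1, its host gene, fell by 0.57 on the log2 scale (SE 0.185, adjusted p = 0.0341). Zfp949 had -0.40 (SE 0.243, adjusted p = 0.221), Cep70 -0.15 (SE 0.141, adjusted p = 0.419), Snhg5 -0.02 (SE 0.188, adjusted p = 0.939) and 9330154J02Rik -0.00 (SE 0.529, adjusted p = 0.999). The AKO libraries of Zfp949 ran lower on HFD, at a median of 7.07 against 10.5 CPM, but within the spread between libraries.

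In fl/fl mice none of the 8 genes passed an adjusted p of 0.05 by edgeR, and 0 of all 15020 genes tested did. None of the 8 met the call rule by edgeR, DESeq2 or limma-voom, against 0.173% of all genes called by edgeR. An unadjusted p under 0.05 was met by 2 of the 8, against 9.01% of all genes. These were Morf4l1, with a log2 fold change of -0.63 (SE 0.295, adjusted p = 0.533), and Gm28586, whose HFD counts came from replicate 2 alone. The other values were -0.22 (SE 0.249) for Zfp949, 0.06 (SE 0.213) for Cep162, -0.17 (SE 0.140) for Cep70, -0.22 (SE 0.394) for 9330159M07Rik, -0.08 (SE 0.561) for 9330154J02Rik and -0.24 (SE 0.186) for Snhg5. On the 19 libraries, 2 genes were called lower on HFD in fl/fl mice, Morf4l1 at -1.58 (SE 0.292) and 9330159M07Rik at -1.68 (SE 0.332), and 3 in AKO mice, Morf4l1 at -1.01 (SE 0.229), 9330159M07Rik at -1.59 (SE 0.268) and Cep162 at -0.78 (SE 0.193). In that fit 11.8% of all genes were called for diet in fl/fl and 15.7% in AKO mice. The diet difference in AKO minus that in fl/fl was -1.23 (SE 0.572) for 9330159M07Rik and -0.32 (SE 0.418) for Morf4l1 on 24 libraries, and 0.09 (SE 0.418) and 0.57 (SE 0.361) on 19. These values contain the genotype contrasts that chose the genes and are given with no test.

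**Figure D4:**
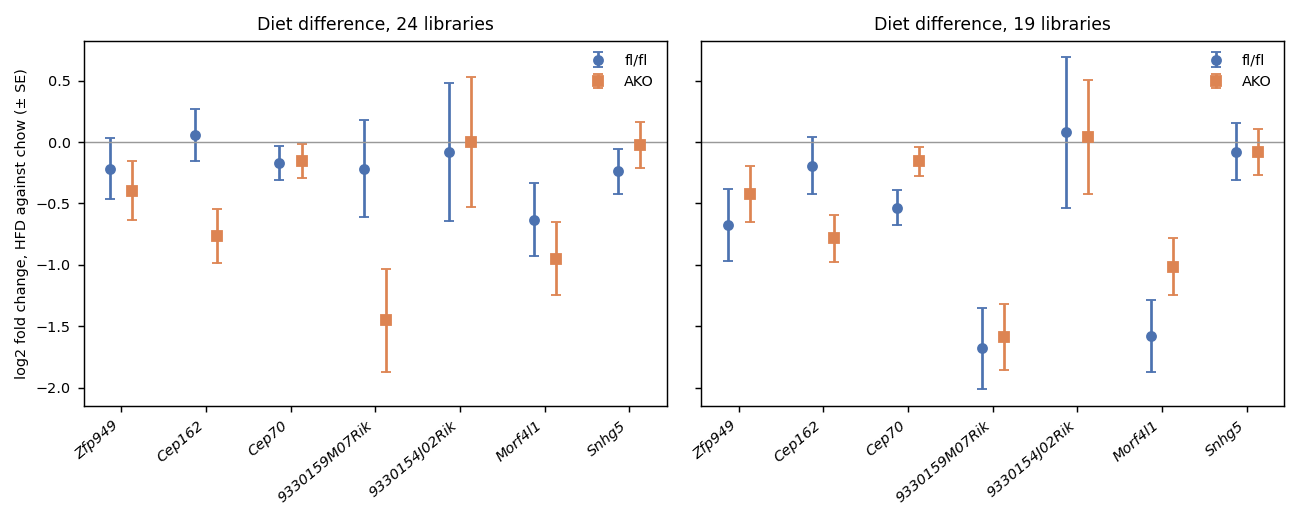
Diet difference of 7 of the genes as log2 fold change of HFD against chow with its SE (vertical), in fl/fl (circles) and AKO (squares) mice, from 24 libraries (left) and 19 libraries (right); Gm28586 is not drawn. Morf4l1 and 9330159M07Rik are low on HFD in both genotypes with 19 libraries, at -1.58 and -1.68 in fl/fl, while Zfp949 lies at -0.67 in fl/fl and -0.42 in AKO mice on 19 libraries.

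The other genes around Zfp949 were tested for the same difference. Within 20 Mb of its start 256 further genes were tested, and 0 were called averaged over the diets by edgeR, DESeq2 or limma-voom. Of these 256 genes, 14 or 5.47% had an unadjusted p under 0.05, against 4.6% of all genes tested. The 8 genes, each with an unadjusted p under 0.05, had been taken out on this same difference, which lowers the counts among the rest. Among the 35 of them within 5 Mb the number was 4, or 11.4%, namely Tbx18, Gm17530, Sh3bgrl2 and Rasgrf1. The median size of the log2 fold change was 0.13 for the 256 genes and 0.12 for all genes. The lowest p belonged to Tbx18, a T-box transcription factor 0.845 Mb before Zfp949, at -0.40 (SE 0.137, adjusted p = 0.953). It was the 1 neighbour called on the 19 libraries, at -0.59 (SE 0.131). Next were Aldh1a2, a retinoic acid synthesis enzyme, at 0.45 (SE 0.161), and the gene model Gm17530 at 0.38 (SE 0.145).

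Within 1 Mb of the start of Zfp949 a further 10 genes were tested, and all 10 had lower means in AKO on chow while 6 were higher on HFD. Over all 15020 genes tested, 7420 were lower on chow and 7052 higher on HFD. An unadjusted p under 0.05 on chow was met by 3 of the 10, against 5.85% of all genes. Others lay near 0, such as Snx14 at -0.06 (SE 0.175) and Syncrip at -0.04 (SE 0.103). A shared shift of the 10 was not tested. On chow 2 of the 256 neighbours were called, both lower in AKO, where 0.113% of all genes were called. Mthfsl is a gene similar to the folate enzyme Mthfs and lies 0.141 Mb from Zfp949. Its log2 fold change was -0.85 (SE 0.207, adjusted p = 0.634, edgeR) on chow and 0.56 (SE 0.204, adjusted p = 0.293) on HFD. It ran from 12.8 CPM through 19.8 to 27.9 CPM in chow fl/fl and from 7.56 CPM through 10.97 to 15.4 CPM in chow AKO, and on HFD from 10.7 CPM through 13.9 to 21.6 CPM in fl/fl and from 17.8 CPM through 24.3 to 28.04 CPM in AKO. The order of the genotypes thus turned between the diets. Sh3bgrl2, which encodes a thioredoxin-like protein, had -0.96 (SE 0.237) on chow and 0.16 (SE 0.235) on HFD. Mthfs, 0.663 Mb away, had -0.22 (SE 0.296) on chow and 0.73 (SE 0.294) on HFD. None of the 256 was free of overlap between genotypes within both diets.

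**Figure D5:**
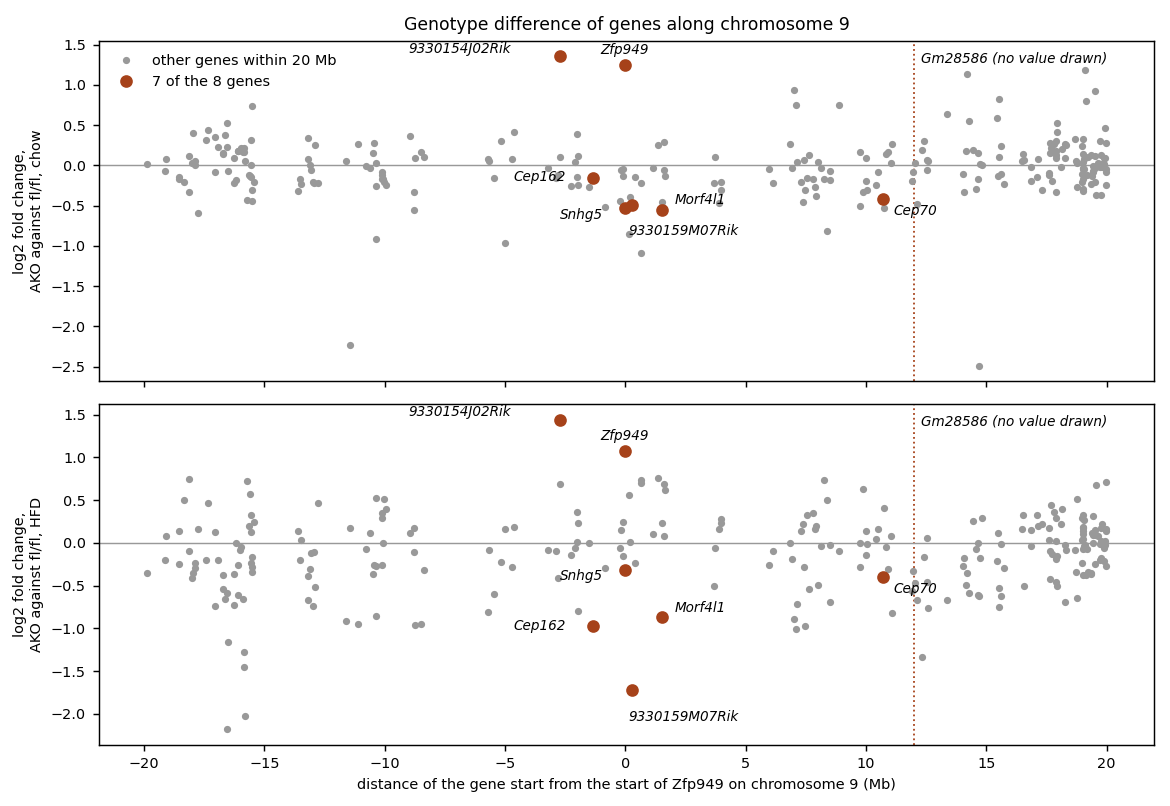
Log2 fold change of AKO against fl/fl on chow (top) and HFD (bottom) for the genes tested on chromosome 9 within 20 Mb of the start of Zfp949, by distance in Mb; large points are 7 of the 8 genes, small points the 256 others, and the dotted line marks Gm28586, for which no value is drawn because its fl/fl libraries were nearly all at 0. Zfp949 and 9330154J02Rik stand above their neighbours in both diets, at 1.25 and 1.36 on chow, and the lower genes lie among other genes of like size on chow. 9330154J02Rik passed the filter only because of its AKO libraries.

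The floxed gene Lama4 lies on chromosome 10. Of 10 genes tested within 1 Mb of its start, Lama4 included, 0 were called by edgeR averaged over the diets, against 0.0333% of all genes. An unadjusted p under 0.05 was met by 0 of the 10, against 4.6% of all genes. The insertion site of the Cre transgene was not analysed here, so whether it lies near any of the 8 genes was not tested.

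Lists of genes with roles like those of the 8 were counted in the same way. Of 16 snoRNA host genes tested, Snhg5 included, 0 were called by edgeR averaged over the diets and 3 had an unadjusted p under 0.05. All 3 were lower in AKO, namely Snhg5, Zfas1 at -0.39 (SE 0.174) and Snhg18 at -0.35 (SE 0.167). Snhg5 was chosen on this difference, which leaves 2 genes, against 4.6% of all genes tested. The median of the list was -0.25, and -0.24 without Snhg5, against -0.02 over all genes. On chow 7 of the 16, or 6 without Snhg5, had an unadjusted p under 0.05, all lower in AKO, against 5.85% of all genes. On HFD 1 was lower and 1 higher, against 14.8% of all genes. Of 35 centrosomal CEP genes, 0 were called averaged over the diets and 3 had an unadjusted p under 0.05, Cep70, Cep162 and Cep95 at -0.43 (SE 0.175). Cep70 and Cep162 were chosen on this difference, which leaves 1 gene, Cep95, against 4.6% of all genes tested. A further 5 CEP genes of the list lie on chromosome 9, of which Cep63, 14.0 Mb from Zfp949, had -0.19 (SE 0.117). The others, all more than 20 Mb away, were Cep126 at -0.70 (SE 0.627), Cep57 at -0.13 (SE 0.157), Cep295 at -0.03 (SE 0.168) and Cep164 at 0.10 (SE 0.109). Of 27 genes of complexes that hold MRG15, 0 were called and only Morf4l1, which was chosen on this difference, had an unadjusted p under 0.05.

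For the diet comparison in AKO mice, 15 of the 35 CEP genes had an unadjusted p under 0.05 and a lower level on HFD, and 1 a higher level, where 39.8% of all genes passed that p. The median of this list was -0.35, and among them Cep41, a ciliary tubulin factor, had -0.87 (SE 0.241, adjusted p = 0.0227), beside Cep162. Of the 27 genes of the MRG15 list 1 was called, against 4.12% of all genes. It was Mrfap1, which encodes a partner of MRG15, at 0.63 (SE 0.165, adjusted p = 0.0200), while Hdac2, a histone deacetylase, had -0.55 (SE 0.146, adjusted p = 0.0211).

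Across the 24 libraries the genes most strongly correlated with Zfp949, in either direction, were not on chromosome 9. By the size of Pearson's r on the log2 CPM scale, the first 10 were Ndufa5, Rfesd, Rbis, Uqcrb, Coa3, Cox6c, Psmb1, Ndufc1 and Ndufa6, with r from -0.73 to -0.69, and Foxn3 with 0.69. Of these, Ndufa5, Uqcrb, Cox6c, Ndufc1, Ndufa6 and Coa3, belong to subunits or an assembly factor of the respiratory chain. With group means taken out r was -0.58 for Ndufa5 and -0.75 for Rbis. Of the other 7 genes, Snhg5 had r = -0.58 with Zfp949 (rank 118), Gm28586 0.58 (rank 138) and 9330154J02Rik 0.43 (rank 1081). Once group means were taken out, Zfp949 had r = 0.57 with Morf4l1, 0.51 with 9330159M07Rik and 0.50 with Cep162, and -0.15 with Gm28586. Among the lower genes, Cep70, Morf4l1 and 9330159M07Rik had r from 0.71 to 0.78 with each other.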

How the data were processed

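Per the labels and the study's methods, the authors aligned and counted QuantSeq 3′ reads of 24 libraries with the Lexogen pipeline V1.8.8 on GRCm38, and deposited raw counts per gene with no normalization. The submitters' processing notes name R 4.0.3 and DESeq2 1.30. A second deposited table holds a signal, the same counts divided by 1 size factor per library, and was used for symbols and positions only. Of 14067 deposited positions, 13940 are identical in GENCODE M21.

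The counts were filtered (at least 1 CPM in at least 3 libraries), scaled by TMM and fitted with the quasi-likelihood test of edgeR 4.0.16 in R 4.3.3, with 1 coefficient per group over all 24 libraries. P-values were adjusted by Benjamini-Hochberg over the 15020 genes tested. Alternatives were DESeq2 1.42.0, limma-voom (limma 3.58.1), RLE factors, no filter, 19 libraries, a replicate block, an adjusted p of at most 0.05 and each library left out. Those 19 are the libraries that an earlier analysis of these data took the study to have kept after its outlier removal, which was not stated by name. Transcript ends were compared with blastn 2.17.0. The scripts were tested on simulated data. The 60 pairs of libraries within groups held no duplicate.

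The 8 genes, the gene lists and the 19 libraries were chosen with earlier results of these data known. Named genes were the 8, Lama4, the 15 neighbours of lowest p and the 10 genes most strongly correlated with Zfp949 in either direction. Also named were genes with no overlap between genotypes, genes near Adipoq and Lama4, and the 3 of lowest p in each list. Genes near Adipoq are not reported, as the site of the transgene is unknown here. Genes outside this rule (Ces1f, mt-Ti, Nck1, Tpbg, Mthfsl, Mthfs, 9430037G07Rik, Cep63, Cep126, Cep57, Cep295, Cep164, Dapk1, Col15a1, Trnp1) were named after their values were seen. Nothing in the labels says whether the mice of a group came from separate litters, so p-values measure the spread between mice. Intervals and the limit for a count of 0 cover counting error only.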

Additional observations from a re-analysis of the deposited data

Results flagged for a closer look

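Of the 32 sets of 6 libraries formed by 8 genes and 4 groups, 2 held a library far from the rest by Dixon's test, where chance flags about 1 in 20. For Gm28586 in HFD fl/fl, replicate 2 stood at 1.122 log2 CPM with 33 counts, and the other 5 libraries had 0 counts (-2.744 log2 CPM). With those 5 tied, any count above 0 in replicate 2 would have been flagged, so the rate of 1 in 20 does not apply to this set. For Cep162 in chow fl/fl, replicate 3 stood at 3.384 log2 CPM, and the other 5 libraries lay between 4.545 and 4.875. The cause of either was not tested.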

How the results depend on the processing

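The table's depth limits 9330154J02Rik (1 to 17 counts per library) and Gm28586. Counts of called genes for the genotype difference averaged over the diets, the genotype difference on chow, the genotype difference on HFD, the diet difference in fl/fl and the diet difference in AKO were 5, 17, 26, 26 and 619. They were 12, 41, 81, 60 and 1315 by DESeq2 and 11, 31, 84, 1750 and 2332 on 19 libraries. Limma-voom gave 3 for the average, and split the diet difference in AKO into 307 higher and 297 lower where edgeR gave 194 and 425. Called at an adjusted p of at most 0.05 they were 1, 0, 0, 0 and 2422. With each library left out in turn they ran from 3 to 10, 4 to 65, 13 to 91, 14 to 63 and 299 to 1169. The lowest on chow was without chow AKO replicate 3 and the highest without chow fl/fl replicate 1; on HFD these were HFD fl/fl replicates 4 and 2, for diet in fl/fl HFD fl/fl replicate 1 and chow fl/fl replicate 1, and for diet in AKO chow AKO replicates 3 and 5. Among the neighbours of Zfp949 the count was 0 averaged over the diets, 2 on chow, 1 on 19 libraries, and 0 with each library left out. The number of genes whose libraries did not overlap between genotypes over both diets was 0, and 0 to 1 with each library left out. Within either diet it was 1, and ran from 1 to 2 with each library left out: without HFD fl/fl replicate 2 Gm28586 joined Zfp949, and without chow AKO replicate 2 Dapk1 did. On 19 libraries it was 3 (Zfp949, Col15a1 and Trnp1).

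Same-numbered replicates correlated at -0.534 to 0.714 over 36 pairs, with 15 over 0.1, so the numbers do not pair the mice. With the replicate block the count on chow was 10, and 9330159M07Rik lost its call on average and on HFD while Gm28586 gained one on HFD.

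Reversed values were those of diet near 0: on 19 libraries Cep162 in fl/fl was -0.19 and 9330154J02Rik was 0.078 in fl/fl and 0.042 in AKO. With each library left out, Cep162 in fl/fl ran from -0.093 to 0.15, 9330154J02Rik from -0.55 to 0.12 in fl/fl and from -0.25 to 0.24 in AKO, and Snhg5 in AKO from -0.14 to 0.12. Zfp949 was called averaged over the diets and on chow in every fit that left out 1 library, and lost its HFD call without HFD AKO replicate 6 (0.92). Without HFD fl/fl replicate 2, Gm28586 was called on HFD and for diet in AKO. Leaving out chow fl/fl replicate 3, chow AKO replicate 4 or HFD AKO replicate 6 gave Cep162 a call for diet in AKO, and leaving out chow AKO replicate 5 or HFD fl/fl replicates 1 or 4 gave 9330159M07Rik one. The call of 9330159M07Rik on HFD was lost without HFD fl/fl replicates 4 or 6 or HFD AKO replicates 2 or 3. The cause of these changes was not tested.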
